A study of Mus musculus with 5 samples.

Results

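Matricellular proteins are secreted into the extracellular matrix but regulate how cells attach to it and respond to it more than they build it. The set described here was chosen by name and holds 10 genes of that kind, namely the thrombospondins Thbs1, Thbs2, Thbs3 and Thbs4, the tenascins Tnc and Tnxb, periostin (Postn), osteonectin (Sparc), osteopontin (Spp1) and spondin 2 (Spon2). They are 10 of the 23478 genes of the count table, and all 10 were among the 15298 genes with enough counts to test. In the Igf1r-deleted cells Thbs1 was at 0.533 of its control level and Spon2 was 1.67-fold higher. Each of these differences was larger than the spread between libraries by an unadjusted test and by DESeq2 after adjustment, but not by edgeR after adjustment. The genotypes overlapped for the other 8 genes.

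The thrombospondins fall into trimeric forms (Thbs1 and Thbs2), which bind CD36 and CD47, and pentameric forms (Thbs3 and Thbs4), and thrombospondin 1 can activate latent TGF-β. Tenascin C and periostin are laid down in growing or repairing tissue and, in the postnatal lung, are associated with the myofibroblasts of the forming alveolar septa. Sparc binds collagen and helps its fibrils assemble, tenascin X spaces collagen fibrils in loose connective tissue, osteopontin is a ligand of integrins and CD44 made largely by macrophages and epithelium, and spondin 2 is a small secreted relative of the F-spondins that binds integrins and microbial surfaces.

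RNA-Seq was done on GFP-sorted lung cells at P6. There were 2 control libraries (Igf1r Flox/Wildtype) and 3 Igf1r-deleted libraries (Igf1r Flox/Flox, labelled Mutant). Both genotypes carried Gli1creER and Rosa-EGFP and received 100 µg of tamoxifen per pup at P0 and at P1, so the controls could also lose 1 copy of Igf1r. GFP marks cells that had active Gli1-CreERT2, with their progeny. The study describes these as primarily lung fibroblasts, with robust labelling of myofibroblasts and some of lipofibroblasts. It found pericytes labelled rarely, and few smooth muscle cells of airways and vessels. The number of pups and the sex behind each library are not given in the sources used here, and nothing states that the libraries came from separate animals, so p-values measure the spread between these libraries. In sorted cells measured in bulk, fewer cells of a type and less RNA per cell cannot be told apart.

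The libraries held 35116766 to 37597857 counts. Levels are given as CPM, the library-scaled count of a gene after edgeR's TMM correction (factors 0.961 to 1.06). Igf1r, which checks the genotypes, had 324 CPM in each control against 140, 177 and 194 CPM after Igf1r deletion (replicates 1, 2 and 3). Markers of other cells were present at low levels and none was at 0 in every library. The summed level of 12 epithelial markers was 1049 to 1129 CPM in the controls and 513 to 1123 CPM in the Igf1r-deleted libraries, and that of 10 endothelial markers was 556 to 574 and 292 to 792 CPM. Markers of the sorted lineage were high, at 28515 to 29915 CPM in the controls and 25901 to 29276 CPM in the Igf1r-deleted libraries for 12 genes of matrix fibroblasts and lipofibroblasts. The 9 pericyte markers summed to 519 to 688 and 687 to 777 CPM, and 6 mesothelial markers to 444 to 450 and 341 to 454 CPM. Sums can hide direction. By log2 fold change, 11 epithelial markers were lower after Igf1r deletion and 1 higher (median −0.38), and 5 mesothelial markers lower and 1 higher. Lower and higher were 6 and 4 endothelial, 9 and 3 matrix fibroblast and lipofibroblast, and 3 and 6 pericyte markers.

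Promoter sequence was read from RefSeq windows of 250 bases before the transcript start (build GRCm38.p6), which were found for 8 of the 10 genes. Thbs1 and Spon2 had no entry. Thbs2, Tnc and Postn are shown because control replicate 1 had the lowest and control replicate 2 the highest level of each, and Tnxb is shown for its AP-1 match. Each sequence is on the strand of its gene, 5′ to 3′, and capitals mark the motif matches.
Tnc (chr4:64047016-64047265, minus strand): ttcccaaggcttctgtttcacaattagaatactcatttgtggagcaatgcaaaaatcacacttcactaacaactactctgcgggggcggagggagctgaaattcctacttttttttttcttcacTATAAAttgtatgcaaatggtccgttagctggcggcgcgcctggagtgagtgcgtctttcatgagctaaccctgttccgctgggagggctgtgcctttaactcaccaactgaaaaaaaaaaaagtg
Postn (chr3:54360857-54361106, plus strand): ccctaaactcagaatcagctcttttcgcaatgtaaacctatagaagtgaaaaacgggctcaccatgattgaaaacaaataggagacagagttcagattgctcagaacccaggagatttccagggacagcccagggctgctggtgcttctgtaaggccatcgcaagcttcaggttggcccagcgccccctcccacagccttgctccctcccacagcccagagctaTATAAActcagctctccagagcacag
Thbs2 (chr17:14694263-14694512, minus strand): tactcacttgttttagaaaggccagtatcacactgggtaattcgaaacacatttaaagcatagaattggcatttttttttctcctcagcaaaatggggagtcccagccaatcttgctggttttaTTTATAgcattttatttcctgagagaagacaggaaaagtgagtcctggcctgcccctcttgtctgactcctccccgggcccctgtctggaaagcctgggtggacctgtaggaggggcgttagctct
Tnxb (chr17:34670285-34670534, plus strand): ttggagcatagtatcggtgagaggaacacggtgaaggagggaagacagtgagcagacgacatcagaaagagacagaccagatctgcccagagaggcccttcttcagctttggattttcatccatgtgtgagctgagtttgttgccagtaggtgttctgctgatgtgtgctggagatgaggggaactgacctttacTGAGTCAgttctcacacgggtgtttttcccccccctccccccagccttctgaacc

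The capitals in Tnc, Postn and Thbs2 are TATAAA or its reverse complement TTTATA, the core of a TATA box, a motif chosen after the sequences were seen. Counted back from the transcript start, the match begins at −126 in Tnc, at −26 in Postn and, on the opposite strand, at −126 in Thbs2, so only that of Postn stands where a TATA box is usually found. Spp1 had a further match at −211, which makes 4 of 8 genes, against 12.4% of all 32851 windows of the same length. The capitals in Tnxb are TGAGTCA, a match to the AP-1 motif TGANTCA at −55, the only one among the 8 genes (6.75% of all windows). Thbs4 had a pair of overlapping matches to the TEAD motif CATTCC at −197 and −192 (12.6% of all windows). The CArG box (1.47% of all windows) and the FOXO motif GTAAACA (3.17%) had no match in the 8 genes. All motifs were searched on both strands. A match describes these letters and is not evidence of binding.

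The genes differed widely in level. The 10 together took 1.56% and 1.64% of all counts in the controls and 1.58%, 1.32% and 1.34% in the Igf1r-deleted libraries, and Sparc, Thbs1 and Tnc held 88.8% to 92.8% of them. Levels per kilobase of exon allow a rough comparison between genes. The length merges the exons of all annotated transcripts of a gene, so it can exceed that of the transcripts present. It was 8.70 kb over 9 transcripts for Postn and 2.95 kb over 5 for Spon2. On this scale Sparc was the highest at 1680 ± 9.88 CPM per kb in the controls (SD, n = 2). It had 1701 ± 178 in the Igf1r-deleted libraries (SD, n = 3), rank 3 of 14479 genes. Thbs1 followed at 1091 ± 132 and 582 ± 195 CPM per kb (rank 21), and Tnc at 269 ± 107 and 313 ± 38.5 (rank 91). The lowest library of each of these 3 genes lay above the highest library of the next, so their order did not depend on the library. Spon2 (rank 318) and Postn (rank 594) came next and their libraries overlapped. Thbs2 (rank 1215) lay above Tnxb (rank 2134) and Thbs3 (rank 2313), which overlapped each other. Spp1 and Thbs4, ranks 10093 and 10880, were near 1 CPM per kb and overlapped.

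**Figure D1:**
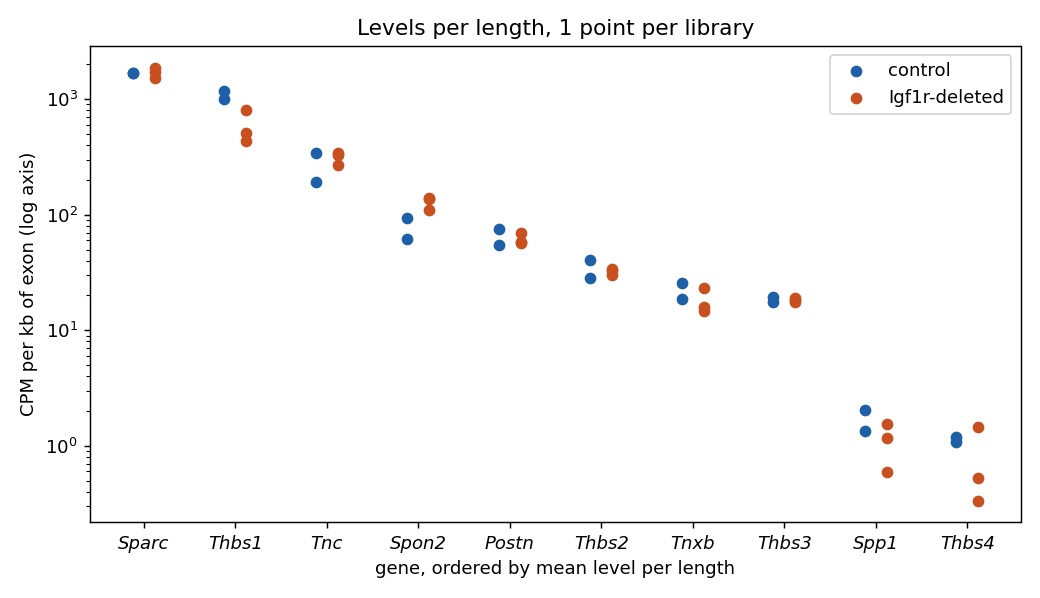
Level of each of the 10 genes in CPM per kilobase of exon (log axis), 1 point per library, genes ordered by their mean, with controls and Igf1r-deleted libraries in separate colours. Sparc, Thbs1 and Tnc stand above the others in every library, and Spp1 and Thbs4 lie far below.

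Thbs1 encodes thrombospondin 1, an inhibitor of angiogenesis and activator of latent TGF-β. It lies at chr2:118111876-118127133 (mm10, plus strand). Thbs1 had 7193 and 6062 CPM in control replicates 1 and 2 against 4876, 2622 and 3103 CPM in replicates 1, 2 and 3 of the Igf1r-deleted group. The genotypes did not overlap, and all 3 Igf1r-deleted libraries were lower. The means were 6627 ± 800 CPM (SD, n = 2) and 3534 ± 1187 CPM (SD, n = 3), which is a log2 fold change of −0.91 (standard error, SE, 0.26, 95% interval −1.53 to −0.29). In CPM its mean difference was the third largest decrease of all tested genes, after fibronectin (Fn1) and elastin (Eln). A difference in CPM favours genes of high level, and by log2 fold change Thbs1 ranked only 553 from the lowest of 15298 genes. edgeR's quasi-likelihood test gave an adjusted p of 0.354, with the unadjusted p under 0.05, and DESeq2's Wald test gave an adjusted p of 0.0249.

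The Igf1r-deleted libraries were not alike for Thbs1. Replicate 1, which had the lowest Igf1r of its group, had the highest Thbs1. With any 1 library left out, the log2 fold change was between −1.22 and −0.74 and the unadjusted p stayed under 0.05. Markers of platelets, a rich source of thrombospondin 1 protein, were low in both genotypes. The 8 genes summed to 16.1 to 19.8 CPM in the controls and 12.8 to 29.2 CPM in the Igf1r-deleted libraries. Of these markers 7 were higher and 1 lower after Igf1r deletion, with a median log2 fold change of 0.36. The part of platelets in the Thbs1 values was not tested. Thbs1 overlaps the antisense lincRNA Gm29233 in 3.43% of its exon length. Thbs1 was among the genes that the study chose for display from these same libraries, so its difference is not independent of that choice. The study also reported lower Thbs1 mRNA by qPCR of whole-lung RNA at P6, a measure that is not of sorted cells.

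Thbs2, the closest relative of Thbs1 and likewise anti-angiogenic, overlapped between the genotypes. It had 198 and 282 CPM in the controls against 237, 209 and 229 CPM after Igf1r deletion (edgeR log2 fold change −0.09 with standard error 0.16 and 95% interval −0.46 to 0.28, adjusted p = 0.824). All 3 Igf1r-deleted libraries lay between the controls. The number of Thbs1 counts for each Thbs2 count was 36.4 and 21.5 in the controls and 20.6, 12.5 and 13.5 in the Igf1r-deleted libraries. The genotypes did not overlap for that ratio, though Igf1r-deleted replicate 1 lay close to control replicate 2. Whether the fold changes of Thbs1 and Thbs2 differ was not tested. Without control replicate 2 the log2 fold change of Thbs2 was 0.18, and without control replicate 1 it was −0.33.

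The pentameric forms also overlapped between genotypes. Thbs3 had 84.9 and 93.0 CPM in the controls against 84.5, 92.3 and 87.8 CPM after Igf1r deletion, the narrowest range of the 10 genes on the log2 scale (edgeR log2 fold change −0.012 with standard error 0.097 and 95% interval −0.24 to 0.22, adjusted p = 0.967). Its exons overlap those of the opposite-strand gene Mtx1 in 6.59% of their length, and reads there cannot be assigned without strand. Thbs4, best known from tendon, muscle and heart, had 135 and 130 counts in the controls against 39, 190 and 62 counts after Igf1r deletion, or 3.89 and 3.55 against 1.11, 4.78 and 1.73 CPM. The highest and lowest libraries of Thbs4 were both Igf1r-deleted (edgeR log2 fold change −0.55 with standard error 0.56 and 95% interval −1.87 to 0.78, adjusted p = 0.704). Leaving out Igf1r-deleted replicate 1, 2 or 3 gave Thbs4 log2 fold changes of −0.19, −1.40 and −0.34 in turn. The summed level of 10 markers of cartilage and tendon was 52.6 to 78.8 CPM in the controls and 46.6 to 75.9 CPM in the Igf1r-deleted libraries, and 2 of the 10 were at 0 in at least 1 library.

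**Figure D2:**
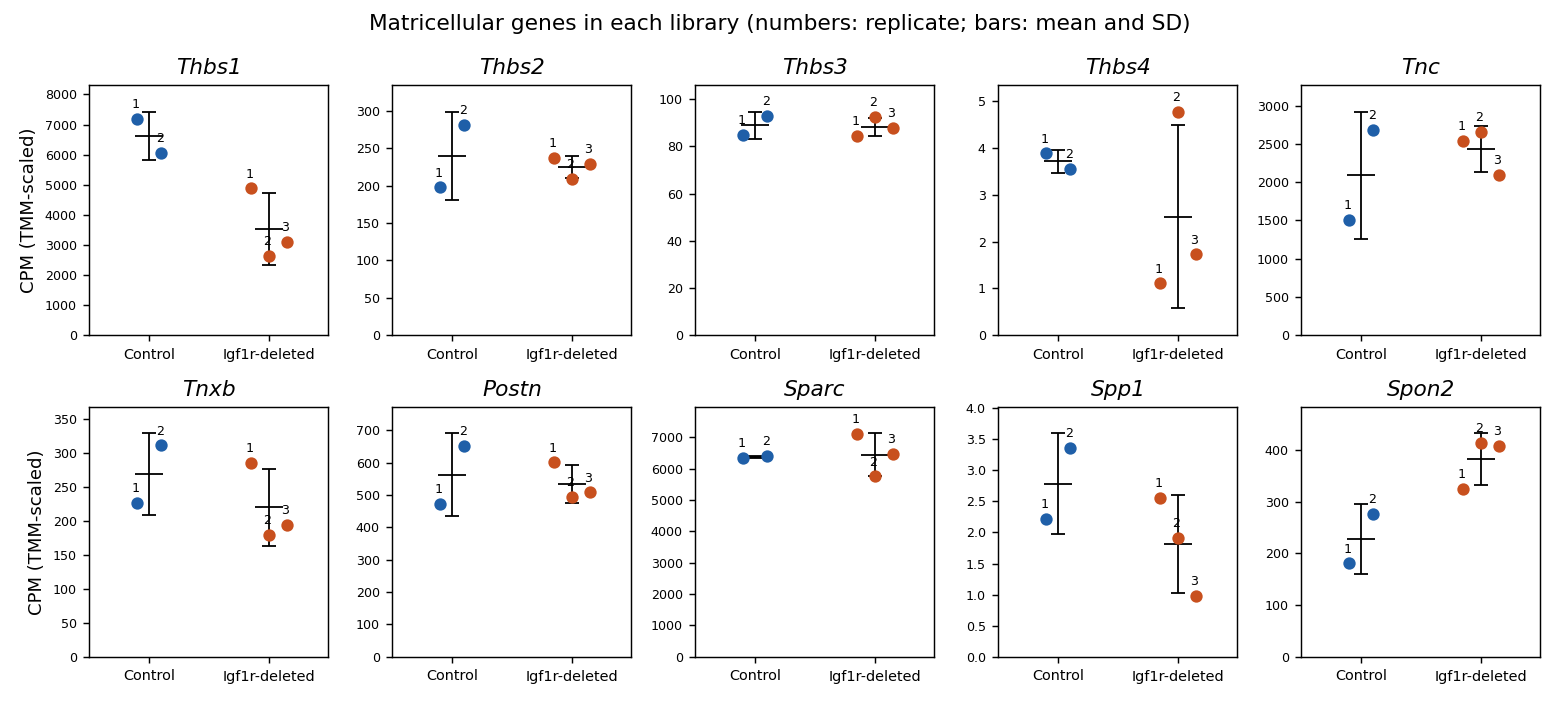
CPM of each of the 10 genes in each library, 1 panel per gene with its own axis from 0, replicate numbers beside the points and bars at each genotype's mean and SD (n = 2 and n = 3). The genotypes separate for Thbs1 (6062 CPM or more against 4876 or less) and Spon2 (276 CPM or less against 324 or more) and overlap for the other 8.

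Tnc, the adhesion-modulating tenascin of developing mesenchyme, varied more between the controls than between genotypes. It had 1505 and 2680 CPM in the controls against 2544, 2663 and 2095 CPM after Igf1r deletion (edgeR log2 fold change 0.22 with standard error 0.25 and 95% interval −0.36 to 0.80, adjusted p = 0.730). Its direction rested on the control libraries, being −0.14 when control replicate 1 was left out and 0.68 when control replicate 2 was. Tnxb, which encodes tenascin X, had 226 and 311 CPM in the controls against 285, 179 and 194 CPM after Igf1r deletion (edgeR log2 fold change −0.29 with standard error 0.22 and 95% interval −0.81 to 0.23, adjusted p = 0.605). Igf1r-deleted replicate 1 lay between the controls and the other two below them, and the log2 fold change of Tnxb was −0.53 when that library was left out and −0.055 when control replicate 2 was. The summed level of 10 markers of adventitial fibroblasts, the cells best known for tenascin X, was 5674 to 7130 CPM in the controls and 5470 to 6779 CPM in the Igf1r-deleted libraries.

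Postn encodes periostin, which binds tenascin C and collagen. It had 473 and 653 CPM in the controls against 600, 495 and 508 CPM after Igf1r deletion (edgeR log2 fold change −0.076 with standard error 0.16 and 95% interval −0.46 to 0.31, adjusted p = 0.859). As for Thbs2, the Igf1r-deleted libraries all lay between the controls, and without control replicate 2 the log2 fold change of Postn was 0.16. Control replicate 1 was the lowest and control replicate 2 the highest library for Thbs2, Tnc and Postn, as they were for 416 of the tested genes (2.72%).

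Sparc, the collagen-binding protein with the highest level of the 10, was nearly equal in the controls, at 6338 and 6391 CPM. The Igf1r-deleted libraries had 7104, 5753 and 6470 CPM, on both sides of the controls (edgeR log2 fold change 0.018 with standard error 0.15 and 95% interval −0.35 to 0.38, adjusted p = 0.971). The interval excludes a change of Sparc as large as the one estimated for Thbs1. Spp1, by contrast, was low, with 77 and 123 counts in the controls against 90, 76 and 35 counts after Igf1r deletion, or 2.22 and 3.36 CPM against 2.55, 1.91 and 0.974 CPM (edgeR log2 fold change −0.62 with standard error 0.43 and 95% interval −1.64 to 0.40, adjusted p = 0.565). Its genotypes overlapped, and Igf1r-deleted replicate 3 was the lowest. Leaving out 1 library gave Spp1 log2 fold changes between −0.95, when Igf1r-deleted replicate 1 was dropped, and −0.30, when control replicate 2 was, and it was −0.33 with Igf1r-deleted replicate 3 dropped. Igf1r-deleted replicate 3 also had the lowest sum of 10 leukocyte markers, which ran from 441 to 619 CPM in the controls and from 223 to 508 CPM in the Igf1r-deleted libraries. All 10 leukocyte markers were lower in the Igf1r-deleted libraries, 3 of them with an unadjusted p under 0.05. Over all tested genes 6.75% were lower by that test. The part of leukocytes in the Spp1 values was not tested. The exons of Spp1 overlap a provisional same-strand transcript, Gm42793, in 18.8% of their length, which makes its counts uncertain.

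Spon2 was the only one of the 10 genes that was higher in every Igf1r-deleted library than in both controls. It lies at chr5:33198184-33218455 (mm10, minus strand). Spon2 had 181 and 276 CPM in the controls against 324, 414 and 407 CPM after Igf1r deletion. The means were 228 ± 67.2 CPM (SD, n = 2) and 381 ± 49.9 CPM (SD, n = 3), with a log2 fold change of 0.74 (standard error 0.20, 95% interval 0.27 to 1.21). By edgeR's quasi-likelihood test the unadjusted p was under 0.05 and the adjusted p was 0.354, and DESeq2's Wald test gave an adjusted p of 0.0347. The size rested in part on control replicate 1, without which the log2 fold change of Spon2 was 0.46, and the unadjusted p stayed under 0.05 with any 1 library left out. The summed level of 14 myofibroblast markers was 5713 to 6295 CPM in the controls and 6315 to 6964 CPM in the Igf1r-deleted libraries, so the genotypes were barely apart. Of the 14 markers, 11 were higher and 3 lower, 4 and 1 of them with an unadjusted p under 0.05. Over all tested genes 12.4% passed that threshold. Their part in the Spon2 difference was not tested. Spon2, like Thbs1, was among the genes displayed by the study.

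**Figure D3:**
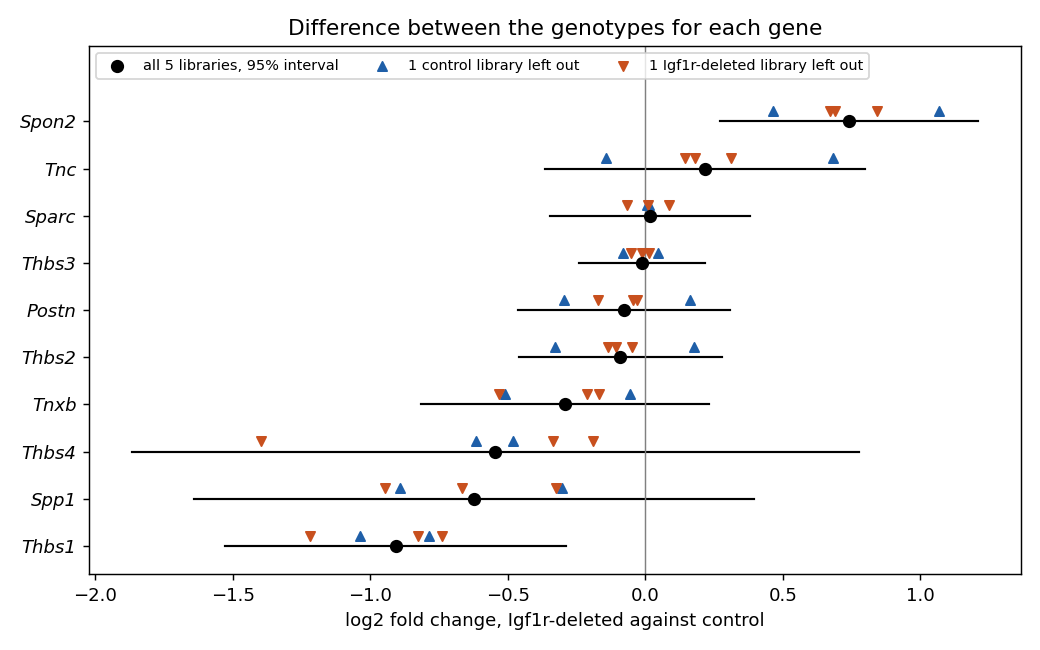
Log2 fold change of each of the 10 genes, Igf1r-deleted over control, with its 95% interval from edgeR's quasi-likelihood fit on 2 and 3 libraries (black) and the fold change with each control (blue) or Igf1r-deleted library (orange) left out. Only the intervals of Thbs1 (−1.53 to −0.29) and Spon2 (0.27 to 1.21) leave out 0.

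Of the 10 genes, 7 had a log2 fold change below 0 and 3 above it, with a median of −0.083, against 0.015 over all tested genes. With an unadjusted p under 0.05 there were 2 of 10, where 12.4% of all tested genes passed (1897 genes). The lower gene was Thbs1, where 6.75% of all genes were lower by this test, and the higher gene was Spon2, where 5.65% were higher. After Benjamini-Hochberg adjustment edgeR called 0 of the 10 and 0% of the 15298 genes. The genotypes did not overlap for 2 of the 10 genes, against 31% of all genes, with 14.9% lower and 16% higher in the Igf1r-deleted libraries. DESeq2 called 2 of 10, against 1.48% of the 13293 genes given an adjusted p (197 genes). The criterion of the study, applied with edgeR's p and CPM, was met by 2 of 10 genes and by 5.83% of all genes. Non-overlap was therefore not more frequent in the set than in the table as a whole.

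The order of the libraries was also measured against the whole table. Both controls above all Igf1r-deleted libraries, with control replicate 1 highest and Igf1r-deleted replicate 1 the third, was the pattern of Thbs1 and of 977 tested genes in all (6.39%). The reverse order, that of Spon2, was found in 930 genes (6.08%). The genes most like Thbs1 across the 5 libraries, by the root mean square distance of centred log2 CPM, were Irgm2 (0.049), Areg (0.073) and March1 (0.076), against a median distance of 0.597 over all genes. Areg, the EGF receptor ligand amphiregulin, was near 1 CPM. For Spon2 they were Synpo (0.039), 5930430L01Rik (0.044) and Frmd4a (0.056), against a median of 0.468. Synpo encodes the actin-binding protein synaptopodin. For Spp1 they were Smpx (0.074), Phf11b (0.12) and Abca13 (0.13), all under 1 CPM in every library. A likeness over 5 libraries describes these libraries only.

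Relatives of the 10 genes by family or role were described in the same way. Of 25 such genes, 19 were tested. Of these, 14 were lower and 5 higher in the Igf1r-deleted libraries, 3 and 1 of them with an unadjusted p under 0.05. That threshold was passed by 21.1% of the 19 genes, against 12.4% of all tested genes. The median log2 fold change of the 19 was −0.15 against 0.015 over all tested genes. Spock2, a testican proteoglycan related to Sparc, had 106 and 56.5 CPM in the controls against 47.7, 39.7 and 28.8 CPM after Igf1r deletion (log2 fold change −1.06, SE 0.29, DESeq2 adjusted p = 0.0242). Smoc2, another relative of Sparc, had a log2 fold change of −0.79 (SE 0.23), and Ecm1, a glycoprotein of the matrix, one of −0.42 (SE 0.15). Wisp1, a CCN family protein, was in the other direction, with 33.2 and 85.8 CPM in the controls against 118, 142 and 134 CPM after Igf1r deletion (log2 fold change 1.14, SE 0.35). The better-known CCN members Cyr61 and Ctgf had log2 fold changes of −0.22 (SE 0.15) and −0.099 (SE 0.12), neither with an unadjusted p under 0.05, and were named after their values were seen. The number of relatives with an unadjusted p under 0.05 depended on the controls, being 1 when control replicate 1 was left out and 7 when control replicate 2 was. Leaving out control replicate 1 gave log2 fold changes of −0.55 for Spock2, −0.36 for Smoc2, −0.23 for Ecm1 and 0.61 for Wisp1, and leaving out control replicate 2 gave 1.97 for Wisp1. Spock2, Smoc2 and Ecm1 were also among the genes displayed by the study.

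Receptors and partners of these proteins were measured in the same cells. All 25 on the list were tested, 14 lower and 11 higher, with a median log2 fold change of −0.048. An unadjusted p under 0.05 was found for 16% of the 25, against 12.4% of all tested genes. Lrp1, the endocytic receptor that clears thrombospondins, had 2989 and 2551 CPM in the controls against 2203, 1638 and 1627 CPM after Igf1r deletion (log2 fold change −0.60, SE 0.18, DESeq2 adjusted p = 0.0401). The genotypes did not overlap for Lrp1. Sdc4, a heparan sulfate proteoglycan, was the other lower gene with an unadjusted p under 0.05 (log2 fold change −0.65, SE 0.24). Cd44, a receptor of osteopontin and hyaluronan, had 248 and 382 CPM in the controls against 466, 441 and 439 CPM after Igf1r deletion (log2 fold change 0.51, SE 0.18), and Itgb8, an integrin subunit that activates TGF-β, had a log2 fold change of 0.87 at 2.56 to 8.13 CPM (SE 0.35). The classical thrombospondin 1 receptors, named after their values were seen, had log2 fold changes of −0.60 for Cd36 (SE 0.26) and −0.19 for Cd47 (SE 0.13). Neither had an unadjusted p under 0.05 by edgeR. The genotypes overlapped for Cd47 and did not for Cd36, as for 31% of all tested genes. DESeq2's Wald test gave Cd36 an unadjusted p of 0.0231 and an adjusted p of 0.254. The number of receptors with an unadjusted p under 0.05 was 4, and it fell to 0 when control replicate 1 was left out and to 2 when Igf1r-deleted replicate 3 was, and was 7 with control replicate 2 left out. For Cd44 the log2 fold change was 0.23, and for Sdc4 −0.26, with control replicate 1 left out. Itgb8 had a log2 fold change of 0.57 with Igf1r-deleted replicate 3 left out.

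Because thrombospondin 1 is known as an activator of TGF-β and as one of its targets, 18 genes that respond to TGF-β were read from the same fit. Of these, 11 were lower and 7 higher, 1 and 4 of them with an unadjusted p under 0.05, with a median log2 fold change of −0.10. That threshold was passed by 27.8% of the 18 genes, against 12.4% of all tested genes. Pmepa1, a feedback inhibitor of the pathway, had 222 and 240 CPM in the controls against 307, 313 and 380 CPM after Igf1r deletion (log2 fold change 0.53, SE 0.13, DESeq2 adjusted p = 0.0275). The smooth muscle genes Acta2 (0.78, SE 0.23) and Tagln (0.59, SE 0.22) and the latent TGF-β binding protein Ltbp2 (0.44, SE 0.18) were the other 3 higher genes of the list with an unadjusted p under 0.05, and Ltbp2 was among the genes displayed by the study. The transcription factor gene Bhlhe40 was lower (−0.66, SE 0.17, DESeq2 adjusted p = 0.0337). Leaving out control replicate 1 gave log2 fold changes of 0.47 for Acta2, 0.32 for Tagln and 0.20 for Ltbp2. Whether the Thbs1 difference is related to TGF-β was not tested.

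Thbs1 is also known as a gene that serum and stress induce quickly, and such genes can respond to the dissociation of tissue before sorting. All 24 immediate early and dissociation genes of a list were lower in the Igf1r-deleted libraries. The median of their log2 fold changes was −0.47. An unadjusted p under 0.05 was found for 14 of them (58.3%), where 6.75% of all tested genes were lower by that test. DESeq2's adjusted p was under 0.05 for 9 of the 24, against 1.48% of all genes given an adjusted p. The 24 genes summed to 32911 and 27847 CPM in the controls against 21758, 20413 and 23647 CPM after Igf1r deletion (replicates 1, 2 and 3). The 5 with the smallest p were Egr2 (log2 fold change −0.82, SE 0.094), Socs3 (−0.76, SE 0.15), Ier5 (−0.67, SE 0.16), Egr3 (−0.87, SE 0.21) and Dusp1 (−0.51, SE 0.13). The heat shock gene Hspa1a, chosen after its values were seen, had 985 and 1122 CPM in the controls against 521, 119 and 114 CPM after Igf1r deletion (log2 fold change −2.07, and −3.18 with Igf1r-deleted replicate 1 left out). Thbs1 and Hspa1a shared the position of Igf1r-deleted replicate 1 between the controls and the other 2 Igf1r-deleted libraries. Egr3, Jund, Myc, Socs3, Ier5, Klf2 and Hspa1b, named after their values were seen, shared it too. For Egr3, Jund, Myc and Socs3 the whole order of the libraries was that of Thbs1. In Fos, Junb, Egr2, Ier2, Zfp36, Btg2 and Dusp1 the genotypes also did not overlap, but replicate 3 was the highest Igf1r-deleted library. The genotypes overlapped for the rest of the list. The summed level of the list was lowest in replicate 2 and highest in replicate 3 of the Igf1r-deleted libraries. The part of these genes' response in the Thbs1 difference was not tested, and with genotype the only recorded difference between the libraries the contribution of handling cannot be told apart from it.

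**Figure D4:**
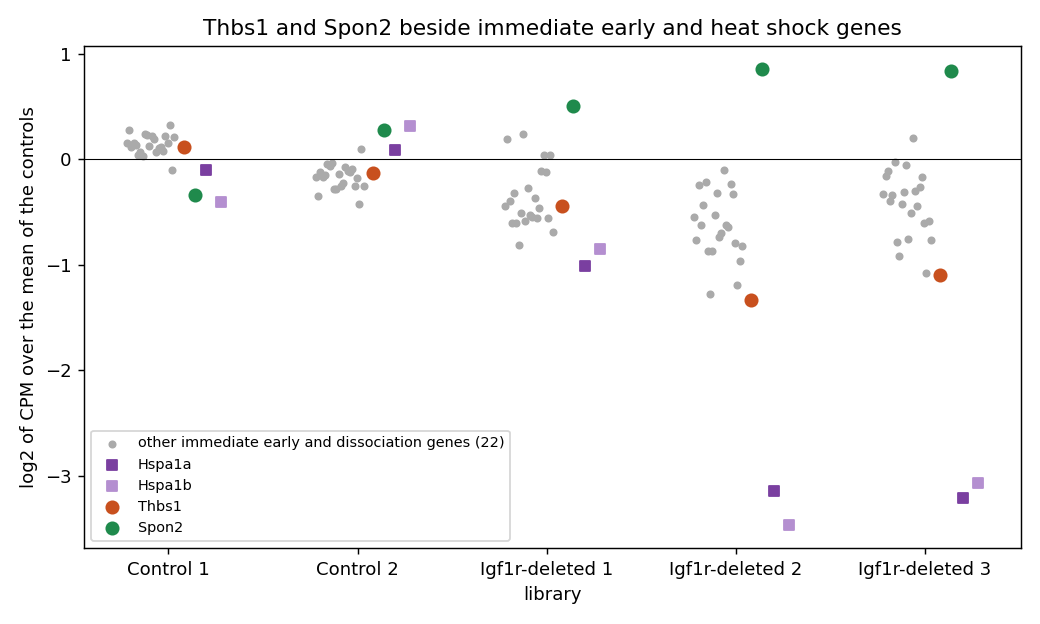
Log2 ratio of CPM in each library to the mean of the controls for Thbs1 (orange), Spon2 (green), Hspa1a and Hspa1b (purple squares) and the 22 other immediate early and dissociation genes (grey). In the Igf1r-deleted libraries Thbs1 lies below 0 with most of the grey points, Hspa1a and Hspa1b lie lower still in replicates 2 and 3, and Spon2 lies above 0.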

How the data were processed

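Libraries were made from GFP-sorted P6 lung cells of 2 control and 3 Igf1r-deleted samples, grouped by the genotype in the labels. Per the labels and the study's methods, the authors used Trim Galore for trimming, Bowtie2 for alignment to mm10, GenomicAlignments for counting, DESeq for testing and Cufflinks for FPKM. The authors deposited raw counts per gene symbol without normalization, and all 5 columns were used. Alignment settings, annotation and use of strand are not given in the sources used here. Bowtie2 places no gapped alignments across introns, so reads over exon junctions may be missing, which bears on levels per kilobase.

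Genotype was the only term of a two-sided quasi-likelihood F test in edgeR 4.0.16 (with limma 3.58.1 under R 4.3.3), after filterByExpr and TMM scaling, and p-values were adjusted by Benjamini-Hochberg over 15298 genes. DESeq2 1.42.0 was an alternative, and its adjusted p was not given for 2005 of the tested genes. A prior count of 2 was used for log2 CPM. The standard error (SE) is the absolute log2 fold change over the square root of F, and 95% intervals use the test's degrees of freedom. The criterion of the study was taken as an unadjusted p under 0.05, a log2 fold change of 0.5 or more in size, and either genotype above 1 CPM in no fewer than 50% of its libraries. The test was run on simulated counts with 200 changed genes first. The smallest permutation p for 2 against 3 libraries is 0.1. Library depth was 35116766 to 37597857 counts, a count of 0 allows up to 3 counts, and such limits cover counting error only.

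All 10 genes are named. From each list of other genes, at most the 5 with the smallest unadjusted p under 0.05 are named, with the 3 genes most like each of the 3 members of largest fold change, and others only where said. The members and lists were chosen with earlier results of these data known. Exon lengths and positions came from GENCODE M21 and promoters from RefSeq. Alternatives were other scaling, filters, tools, a replicate block and leaving out each library.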

Additional observations from a re-analysis of the deposited data

How the results depend on the processing

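Thbs1 and Spon2 kept their direction and an unadjusted p under 0.05 in all 14 alternatives (9 of the processing and 5 that each left out a library), with log2 fold changes of −1.22 to −0.74 for Thbs1 and 0.46 to 1.07 for Spon2. Their adjusted p ran from 0.0249 to 0.9996 for Thbs1 and from 0.0347 to 0.9996 for Spon2. The number of the 10 genes with an unadjusted p under 0.05 was 2 in every alternative of the processing and 2 to 3 with a library left out. Over all genes that number was 1897, and 433 to 3183 with a library left out, lowest without control replicate 1 and highest without Igf1r-deleted replicate 1. For the relatives it was 4, with 7 under the looser filter, which tested more genes, and 1 to 7 with a library left out. For the receptors it was 4, and 0 to 7 with a library left out. Genes with an adjusted p under 0.05 numbered 0 by edgeR, 197 by DESeq2, 136 with the replicate block, 45 without control replicate 2, 5 without Igf1r-deleted replicate 1 and 4 without Igf1r-deleted replicate 2, and 0 under the other alternatives. A further 26 genes were rechecked, namely Igf1r, the list genes named for an unadjusted p under 0.05, Hspa1a and Hspa1b. Of these, 0 changed direction under any alternative. Losses of an unadjusted p under 0.05 were counted only in fits that kept both controls. There were 10 without Igf1r-deleted replicate 3, 8 without replicate 2 and 0 without replicate 1 of that group. At most 2 of the 26 genes lost it under any alternative of the processing. Fits without a control library leave a single control, so p-values and counts of genes passing from those fits rest on that control alone. For the 26 genes only direction and log2 fold change are taken from those fits. Genes named for other reasons, such as Cyr61, Ctgf, Cd36 and Cd47, were not rechecked.

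Directions turned for genes near 0. With library totals alone, which moved the median of all genes to 0.088, Thbs3 was 0.062. With a library left out the log2 fold change ranged from −0.33 to 0.18 for Thbs2, from −0.081 to 0.045 for Thbs3, from −0.14 to 0.68 for Tnc, from −0.29 to 0.16 for Postn and from −0.065 to 0.087 for Sparc. The cause was not tested.

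Same-numbered libraries were fitted with a replicate block as an alternative, which gave Thbs1 −0.88 (edgeR adjusted p = 0.131) and Spon2 0.71 (edgeR adjusted p = 0.0561). The deviations of same-numbered libraries correlated at 0.208 and 0.122, but there were only 2 such pairs and the labels do not say that the numbers pair the samples. The block changed no call of the 10 genes. The lowest counts of the 10 genes were those of Thbs4 and Spp1, with 35 to 190 counts per library.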

Other observations

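Of 22 targets of YAP, a transcriptional coactivator that responds to cell tension, 15 were higher and 7 lower in the Igf1r-deleted libraries. An unadjusted p under 0.05 was found for 3 and 2 of them, which is 22.7% of the list, against 12.4% of all tested genes. The median log2 fold change of the 22 was 0.11 against 0.015 over all tested genes. Thbs1, itself known as a target of YAP, is one of the 10 genes described and was not on this list, and it had a log2 fold change of −0.91. The best-known targets on the list, Cyr61 and Ctgf, were named after their values were seen and had log2 fold changes of −0.22 and −0.099. By qPCR of whole-lung RNA at P6, not of sorted cells, the study reported Thbs1, Cyr61 and Ctgf as decreased. Besides these transcripts, the study reported less YAP protein in lung homogenates and less nuclear YAP in myofibroblasts, which RNA counts do not measure. Myof, which encodes the membrane repair protein myoferlin, had 56.6 and 61.3 CPM in the controls against 135, 70.2 and 128 CPM after Igf1r deletion (log2 fold change 0.91, SE 0.27, DESeq2 adjusted p = 0.0425). Dock5, a guanine nucleotide exchange factor, had a log2 fold change of 0.56 (SE 0.17) and Foxf2, a transcription factor of mesenchyme, one of 0.41 (SE 0.16). Nuak2, a kinase, had a log2 fold change of −0.62 (SE 0.24) and Axl, a receptor tyrosine kinase, one of −0.28 (SE 0.11). None of these had an adjusted p under 0.05 by edgeR. Leaving out control replicate 1 gave log2 fold changes of 0.22 for Foxf2, −0.28 for Nuak2, 0.44 for Dock5, 0.85 for Myof and −0.27 for Axl. For Axl the unadjusted p of edgeR's test was 0.0752 with library totals alone and 0.0727 with the replicate block.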
